A study of Mus musculus with 9 samples.

Results

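The genes described here are 10 mouse genes for matricellular and other noncollagen proteins of the extracellular matrix, namely Fn1, Sparc, Postn, Tnc, Thbs1, Thbs2, Fbn1, Eln, Vcan and Bgn. They were picked by symbol and matched to Ensembl identifiers, and all 10 were found among the 46078 genes listed for cultured cells and the 38293 genes listed for muscle tissue. Their RNA was measured by RNA sequencing in 9 libraries of the C57BL/6 strain. Primary myoblasts (MB), the cultured precursor cells of muscle fibers, were grown on Matrigel, itself a basement membrane extract, in a medium with serum and basic FGF (2 control libraries). Myotubes (MT, 2 libraries) were made from such MB by 3 days in a differentiation medium with less serum and no added FGF. Lactate-treated MB (2 libraries) received 10 mM sodium-L-lactate in PBS, and control MB and MT received PBS alone. Gastrocnemius muscle (GAS, 3 libraries) came from untreated female mice aged 8 to 12 weeks and holds fibers together with connective tissue, vessels and nerve. The study measured RNA to relate it to a histone lactylation mark and asked whether lactate alone would move gene expression of MB toward that of MT.

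Matricellular proteins are secreted into the matrix and mostly act on cells through receptors rather than carry load, whereas fibronectin, fibrillin and elastin build fibrils and fibers. Fibronectin is assembled at the cell surface by integrins, fibrillin microfibrils hold elastin and latent TGF-β, and proteoglycans such as versican and biglycan bind hyaluronan, collagens or growth factors. In skeletal muscle these proteins surround each fiber, form part of the niche of muscle stem cells and are remodeled during regeneration, when many of them come from fibroblasts and other interstitial cells as well as from muscle cells. Reads cannot tell whether a dish or a muscle held more cells of a type or more RNA per cell, and this applies to every value below.

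Total counts were between 5198247 and 10839516 in the libraries of cultured cells and between 19307793 and 19941574 in those of GAS. At this depth 3 counts, taken as the limit that a count of 0 allows, were worth at most 0.577 CPM in cultured cells. This limit is scaled to the library total alone, and all other CPM are scaled to the library total with TMM factors. Myog, induced when MB differentiate, stood at 739 and 1025 CPM in MT and at 85.1 and 37.1 CPM in MB, and Pax7, a gene of muscle stem cells, at 1.04 and 1.65 CPM in MT and at 25.1 and 20.6 CPM in MB. A pair of features set single libraries apart. MT replicate 1 had counts for 28599 genes and MT replicate 2 for 17965. CT010467.1, a gene of ribosomal RNA, held 9.20% of counts in MB replicate 1, 13.8% in lactate-treated MB replicate 1 and at most 0.575% elsewhere.

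The promoter sequences are shown because 5 of these genes rose in MT, and so that the motif matches can be read in place. RefSeq windows of the 250 bases before a transcription start (GRCm38.p6, the assembly of the alignment) were found for 7 of the 10 genes, 9 windows in all, and there was no entry for Fn1, Thbs1 or Eln. Printed are the windows of Postn and Thbs2, the members with the highest log2 fold changes in MT, of Vcan, which rose from a low level, and of Tnc, which did not rise. They lie at chr3:54360857-54361106 on the plus strand for Postn, and on the minus strand at chr17:14694263-14694512 for Thbs2, chr13:89742513-89742762 for Vcan and chr4:64047016-64047265 for Tnc. Each is written 5′ to 3′ and ends at the base before the start, and capitals mark every match to a searched motif.
Postn: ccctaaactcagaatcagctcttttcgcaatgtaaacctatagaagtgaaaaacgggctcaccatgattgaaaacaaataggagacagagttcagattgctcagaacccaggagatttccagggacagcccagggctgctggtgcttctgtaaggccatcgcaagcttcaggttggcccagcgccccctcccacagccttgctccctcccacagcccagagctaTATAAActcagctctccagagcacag
Thbs2: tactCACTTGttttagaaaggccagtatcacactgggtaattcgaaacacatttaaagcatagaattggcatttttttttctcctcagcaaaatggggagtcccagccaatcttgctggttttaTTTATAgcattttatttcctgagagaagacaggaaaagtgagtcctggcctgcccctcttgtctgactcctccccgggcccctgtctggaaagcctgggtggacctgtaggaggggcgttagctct
Vcan: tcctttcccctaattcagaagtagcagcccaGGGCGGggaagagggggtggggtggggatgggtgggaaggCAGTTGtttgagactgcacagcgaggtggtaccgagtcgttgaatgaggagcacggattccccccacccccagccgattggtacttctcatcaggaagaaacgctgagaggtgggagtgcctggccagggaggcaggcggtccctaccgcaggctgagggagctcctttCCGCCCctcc
Tnc: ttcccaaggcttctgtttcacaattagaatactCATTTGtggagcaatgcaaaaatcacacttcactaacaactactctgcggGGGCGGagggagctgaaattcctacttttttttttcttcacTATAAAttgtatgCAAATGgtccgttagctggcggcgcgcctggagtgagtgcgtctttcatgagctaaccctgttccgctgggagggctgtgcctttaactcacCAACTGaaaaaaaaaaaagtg
The motifs, searched on both strands, were the TATA box (TATAAA), the E-box bound by myogenic factors (CANNTG) and its variant CAGCTG, the M-CAT motif (CATTCC), the GC box (GGGCGG), the AP-1 motif (TGANTCA) and the CArG box. Every CAGCTG is also an E-box. The printed Postn window has a single match, a TATAAA at base -26 from the start, close to where such an element usually lies. The other Postn window, at chr3:54359017-54359266, has no match to a searched motif. Thbs2 has a TATAAA on the other strand at base -126 and an E-box at -246. Vcan has no TATAAA but GC boxes at -219 and -10 and an E-box at -179. Tnc has a TATAAA at -126, a GC box at -167 and E-boxes at -217, -113 and -21. Over all 9 windows TATAAA was found in 4, against 12.4% of 32851 windows of the same length in the table, and both Tnc windows, which overlap, are among the 4. The E-box was found in 6 of 9 windows, against 66.2% of all, CAGCTG in 2 (13.0%) and the GC box in 5 (32.7%). M-CAT (12.6% of all), AP-1 (6.75%) and the CArG box (1.47%) had no match in the 9 windows. These matches are letters in a window, and nothing was measured on binding.

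The genes are spread over the genome, with only Thbs1 and Fbn1 on the same chromosome, and all are protein coding in GENCODE M21 (mm10). Fn1 lies at chr1:71585520-71653200 (ENSMUSG00000026193, minus strand), Sparc at chr11:55394500-55423183 (ENSMUSG00000018593, minus strand), Postn at chr3:54361109-54391037 (ENSMUSG00000027750, plus strand), Tnc at chr4:63959785-64047015 (ENSMUSG00000028364, minus strand) and Thbs1 at chr2:118111876-118127133 (ENSMUSG00000040152, plus strand). Thbs2 lies at chr17:14665500-14694235 (ENSMUSG00000023885, minus strand), Fbn1 at chr2:125300594-125507993 (ENSMUSG00000027204, minus strand), Eln at chr5:134702593-134747323 (ENSMUSG00000029675, minus strand), Vcan at chr13:89655312-89742509 (ENSMUSG00000021614, minus strand) and Bgn at chrX:73483602-73495933 (ENSMUSG00000031375, plus strand). Their reads were counted over the exons, whose merged length ranged from 3788 bases for Sparc to 14462 for Vcan. Annotated genes on the opposite strand overlap exons of Fn1, Tnc, Thbs1, Fbn1 and Eln. The longest overlap is 2442 bases of Fbn1 with Gm9913, which had at most 24 counts in any library. Whether strand was used in counting is not given in the sources used here.

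In MB the 10 genes spanned the whole range from some of the most abundant RNAs of the cell to none. Compared per length, as CPM divided by exonic kilobases (RPKM), Sparc, whose collagen-binding protein is also called osteonectin, was the highest at 472 ± 70.0 RPKM (SD, n = 2), above 99.5% of the 18505 genes with counts. Thbs1, the TGF-β-activating thrombospondin, followed at 100.1 ± 32.5, with Bgn (biglycan) at 99.3 ± 48.7 and Fn1 (fibronectin) at 79.7 ± 3.01 RPKM. The libraries of these neighbors overlapped, so their order is not resolved. Tnc (tenascin C) stood below them at 28.1 ± 1.60 RPKM. Thbs2, Vcan and Fbn1 came next with 1.21, 1.12 and 1.08 RPKM and overlapping libraries. Postn was at 0.04 RPKM, from 0 and 6 counts, and Eln had no count in either library, which allows up to 3 counts in each.

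**Figure D1:**
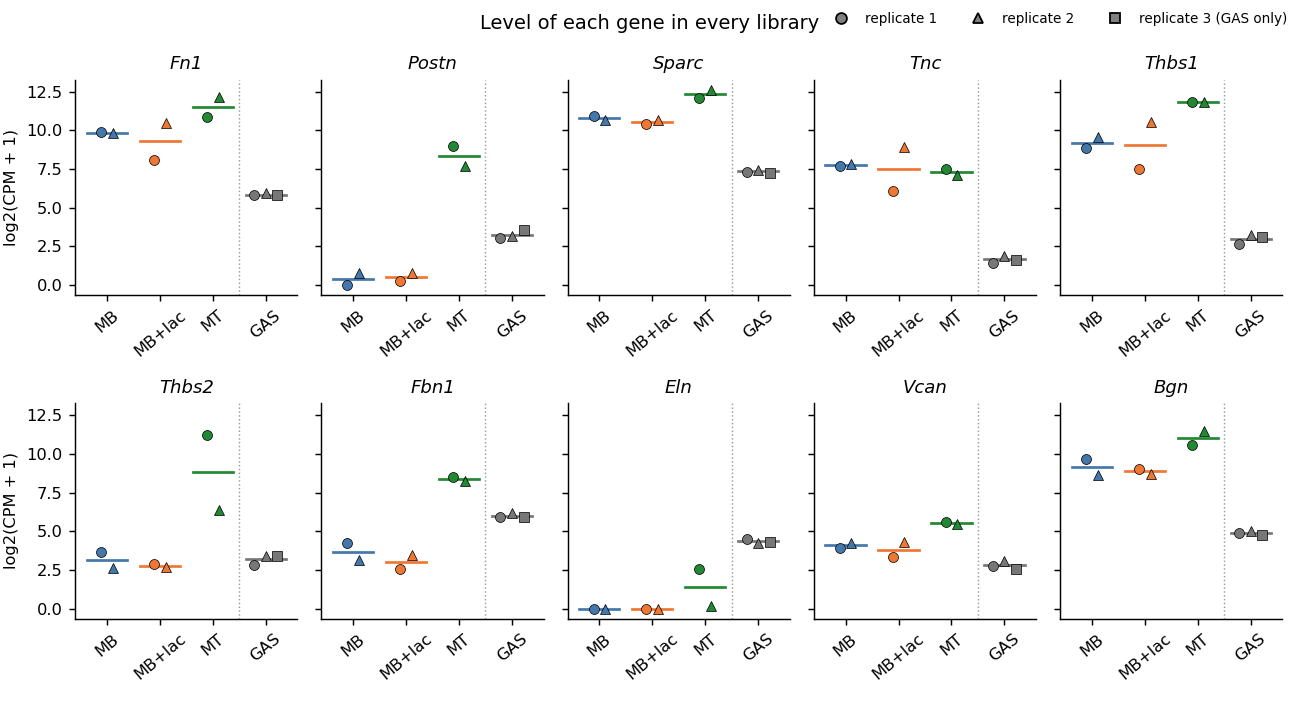
Level of each of the 10 genes in every library, as log2(CPM + 1) on the vertical axis, for control MB, lactate-treated MB (MB+lac), MT and GAS on the horizontal axis. Each symbol is a library, its shape gives the replicate number, the horizontal bars are the means of the plotted values, and the dotted line parts the cultured cells from GAS, whose libraries were made with another protocol. Both MT libraries lie above both MB libraries for every gene but Tnc, although for Eln MT replicate 2 does so by only 1 count. The lactate-treated libraries of Fn1, Tnc and Thbs1 lie on either side of the control libraries.

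The comparison of MT with MB asks which of these genes change as MB fuse and differentiate. Low counts left out Eln, and of the other 9 genes 5 rose in MT (Postn, Thbs2, Fbn1, Thbs1 and Vcan) and none fell, at an adjusted p under 0.05 and an absolute log2 fold change (log2FC) over 0.5 in edgeR's quasi-likelihood test. Among all 12921 genes tested, 11.0% were called higher and 6.86% lower. Postn, with few counts in MB, passed the filter through its MT counts and could not have been called lower. The median log2FC of the 9 genes was 1.81, against 0.07 for all genes tested. The latter was 1.82 over the 30070 genes of a fit without a filter on low counts, and between -0.02 and 1.00 when a library was left out. Both MT libraries lay above both MB libraries for 8 of the 9, where this held for 32.9% of all genes, and below them for Tnc, where it held for 29.2%.

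**Figure D2:**
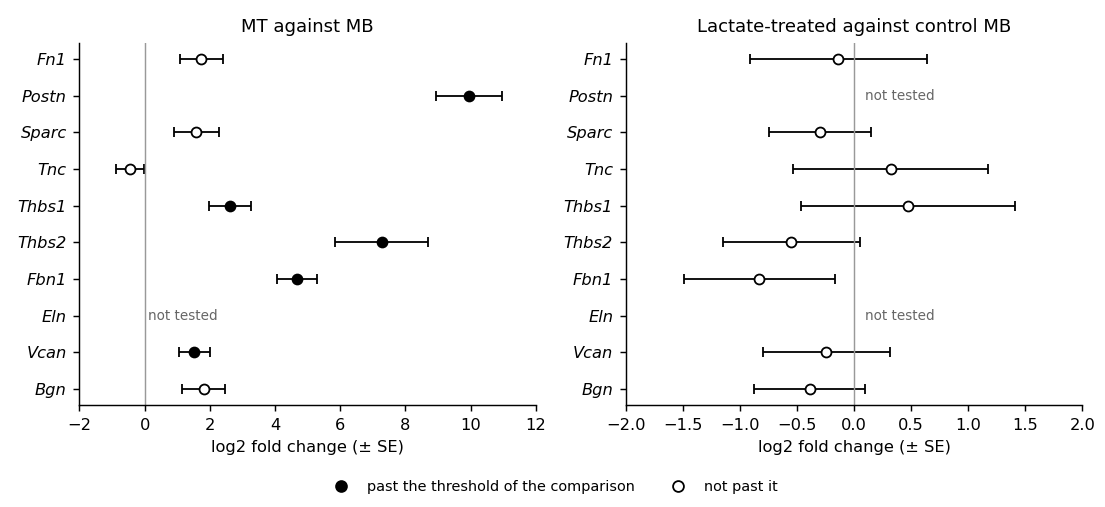
Log2 fold change of each of the 10 genes with its SE (bars) in MT against MB (left) and in lactate-treated against control MB (right), on horizontal axes of different range. Filled points passed the threshold of their comparison and open points did not. Postn, Thbs2, Fbn1, Thbs1 and Vcan are filled on the left, and no point is filled on the right.

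Fibronectin, to which MB attach through integrins, had 956 and 906 CPM in MB and 1859 and 4515 CPM in MT. The MT libraries lay above those of MB but differed from each other by 2.43-fold. Its log2FC was 1.74 (SE 0.66, adjusted p = 0.0956), which did not pass. Without MT replicate 2, the higher of the MT libraries, the log2FC was 0.90.

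Among the members Postn had the highest log2FC. Periostin, which binds integrins and promotes cross-linking of collagen, went from 0 and 0.72 CPM in MB to 507 and 210.1 CPM in MT. In counts these are 0 and 6 against 6815 and 1652, so that the gene was close to silent before differentiation. After it, Postn was above 95.8% of the 29014 genes with counts in MT, where MB had 18505 such genes. Its log2FC was 9.95 (SE 1.02, adjusted p = 0.000201), a size that rests on 6 counts in MB and ranged from 8.90 to 14.75 over the alternatives tried. Sparc was high in both states, with 1976 and 1601 CPM in MB and 4458 and 6407 CPM in MT. At 1434 ± 364 RPKM (SD, n = 2) it held rank 15 among all genes in MT. The libraries did not overlap, but its log2FC of 1.58 (SE 0.69, adjusted p = 0.142) did not pass.

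Tenascin C, which is found at myotendinous junctions and in regenerating muscle, was the only tested member with a negative log2FC. Tnc had 209 and 227 CPM in MB and 181 and 136 CPM in MT. The MT libraries lay below those of MB, by a log2FC of -0.45 (SE 0.44, adjusted p = 0.52) that did not pass.

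Both thrombospondin genes rose. Thbs1, whose protein activates latent TGF-β and binds CD36 and CD47, had 468 and 747 CPM in MB and 3632 and 3706 CPM in MT. The MT libraries were close to each other, and Thbs1 held rank 47 among all genes in MT by RPKM, with a log2FC of 2.61 (SE 0.65, adjusted p = 0.0195). Thbs2, the homolog that also binds CD36, had 11.8 and 5.18 CPM in MB and 2462 and 83.0 CPM in MT. The MT libraries were far apart, although the lower of them still had 653 counts against at most 96 in MB. The log2FC of Thbs2 was 7.27 (SE 1.43, adjusted p = 0.0069), and without MT replicate 1, which leaves a single MT library, it was 3.19.

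Of the elastic fiber genes among the members, Fbn1 rose and Eln was not tested. Fbn1, which encodes the fibrillin of microfibrils, had 18.4 and 7.71 CPM in MB and 365 and 308 CPM in MT, with MT libraries close to each other. Its log2FC was 4.67 (SE 0.61, adjusted p = 0.000758). Eln, for tropoelastin, had no count in MB and 67 and 1 counts in MT. The MT values are 4.99 and 0.13 CPM, and that of MT replicate 2 is within the limit that a count of 0 allows, so that counts of Eln above it came from MT replicate 1 alone.

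For both proteoglycan genes the MT libraries lay above those of MB, and Vcan, the less abundant, passed. Vcan encodes versican, a hyaluronan-binding proteoglycan of provisional matrix, and had 14.3 and 18.1 CPM in MB and 48.8 and 43.6 CPM in MT. The libraries of each group were close, and the log2FC was 1.53 (SE 0.47, adjusted p = 0.0476). Bgn encodes biglycan, a small proteoglycan that binds collagen and the dystrophin-associated complex, and had 816 and 396 CPM in MB and 1512 and 2888 CPM in MT. Its log2FC of 1.81 (SE 0.65, adjusted p = 0.0818) did not pass, and it was 1.19 without MT replicate 2 and 2.42 without MB replicate 1.

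Calls close to the threshold depended on the libraries and on the test. When a library is left out, 1 group has a single library, which is then assumed to vary like the 2 of the other group, so these p-values are less certain. Vcan was lost when MB replicate 1 (adjusted p = 0.112), MT replicate 1 (0.348) or MT replicate 2 (0.126) was left out of edgeR's quasi-likelihood test, and Thbs1 when MT replicate 1 was left out (0.0544). The log2FC of both genes moved little, to no lower than 1.31 for Vcan and to 2.56 for Thbs1. Without MT replicate 1, the library with the most genes detected, 3 members passed. Thbs1 and Vcan were also lost in a fit of all 6 libraries of cultured cells (0.0694 and 0.0615). Fn1, Sparc and Bgn passed in the DESeq2 Wald test (adjusted p = 0.00587, 0.00545 and 0.0068) and in edgeR's likelihood ratio test (0.0119, 0.015 and 0.0125), Bgn also without MB replicate 1 (0.0238), and Postn, Thbs2 and Fbn1 passed in each of these fits. Thbs2 did not pass in a fit with a crossed replicate block (log2FC 5.80, adjusted p = 0.0779).

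Summed over the 10 genes, the level was 4470 and 3909 CPM in MB and 15031 and 18297 CPM in MT. The make-up of this sum was not the same in both. By RPKM, Sparc took 61.7% and 58.7% of the sum in MB and 44.4% and 52.2% in MT, and Tnc took 3.18% and 4.05% in MB and 0.88% and 0.54% in MT. Thbs2 took at most 0.20% in MB and 13.3% and 0.37% in the MT libraries. Postn and Thbs2 were higher in replicate 1 of MT, and Fn1, Sparc and Bgn in replicate 2. The order of the genes in MT was Sparc, Thbs1, Bgn, Fn1, Thbs2, Postn, Fbn1, Tnc, Vcan and Eln, with no overlap between neighbors from Sparc to Bgn and from Fbn1 to Eln, and overlapping libraries between neighbors from Bgn to Fbn1.

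**Figure D3:**
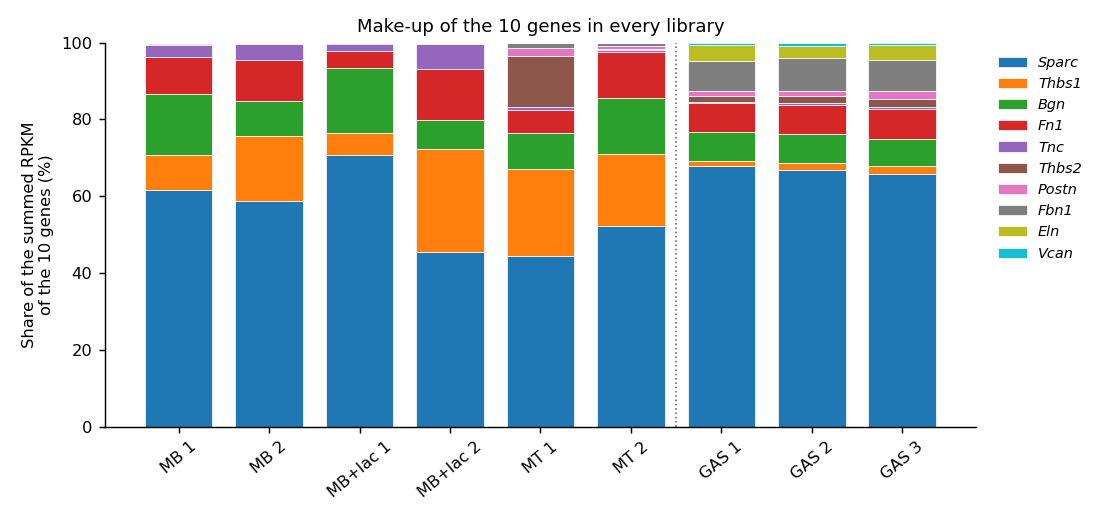
Share of each of the 10 genes in their summed RPKM (vertical axis, percent) in each of the 9 libraries (horizontal axis, numbered by replicate), with the dotted line between cultured cells and GAS. Sparc takes between 44.4% and 70.7% in every library, the share of Thbs1 is 5.72% in one lactate-treated library and 26.9% in the other, and Fbn1 and Eln take visible shares in GAS.

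Related genes were counted in lists chosen, like the members, with earlier results of these data known, so that these counts are descriptions. Genes at 3 counts or fewer in every MB library passed the filter through their MT counts, so they could not have been called lower. Among tested genes there were 2 such matricellular genes, 2 elastic fiber and microfibril genes and 4 proteoglycan and hyaluronan genes. There were also 3 such receptors, 2 proteases and 1 gene of the TGF-β list. Ccn5, with 0 and 4 counts in MB, lies just above this limit, and it likewise could not have been called lower. Other genes just above the limit were not counted. Of 13 tested genes among 20 other matricellular genes, 7 rose in MT and none fell (median log2FC 2.10). Ccn5, a growth-regulating member of the CCN family, stood at 350.5 and 390.4 CPM in MT against 0 and 0.48 CPM in MB (adjusted p = 9.21e-05). Spon2 (spondin 2) stood at 75.6 and 38.3 CPM against 0.25 and 0.12 CPM. Vtn (vitronectin) stood at 7.59 and 1.40 CPM against no count in MB, a mean level about 12.5-fold the limit of 3 counts in MB. Vtn no longer passed when MB replicate 1 or 2 was left out (adjusted p = 0.0797 and 0.0679), with a log2FC of 8.48 and 8.44 against 8.47 from all 4 libraries. The other 6 tested genes, among them Tgfbi and Spp1, did not pass.

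The list of other elastic fiber and microfibril genes went both ways. Of 11 tested genes among 15, 4 rose and 2 fell, with a median log2FC of 0.15. Mfap5, a microfibril-associated glycoprotein, had 37.6 and 9.79 CPM in MT and no count in MB, on average about 65.8-fold the limit of 3 counts in MB. Fbln5, a fibulin required for elastic fiber assembly, had 5.88 and 3.37 CPM in MB and 29.5 and 183 CPM in MT. It rose by a log2FC of 4.44 (SE 0.81, adjusted p = 0.00479), which was 2.55 without MT replicate 2. Emilin1 rose from 1 and 2 counts in MB to 271 and 46 in MT. The genes that fell, named after their values were seen, were Fbln1 (log2FC -2.44) and Ltbp1 (-1.61), the latter for a protein that ties latent TGF-β to microfibrils.

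Proteoglycan and hyaluronan genes rose in 6 of 8 cases tested, out of 16 listed, and none fell. Their median log2FC was 6.05, or 5.42 with the 4 genes at 3 counts or fewer in every MB library set to that limit. Dcn (decorin), a close relative of Bgn, had 408 and 110.3 CPM in MT and 0 and 2 counts in MB. Fmod (fibromodulin) had 14.1 and 16.4 CPM in MT and likewise 0 and 2 counts in MB. Prelp had 21.4 and 25.6 CPM in MT and no count in MB, on average about 65.3-fold the limit of 3 counts in MB. The hyaluronan synthases Has1 and Has2 had log2FC of -0.31 and 0.18 and did not pass.

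Receptors of the 10 proteins were mixed, with 6 of 13 tested genes higher and 1 lower (median log2FC 1.79). Cd36, the receptor of both thrombospondins, had 55.2 and 42.5 CPM in MT against 3 and 0 counts in MB. The integrin subunits Itga9, for tenascin C, and Itga4, for fibronectin, had 150 and 30 counts and 188 and 26 counts in MT, against at most 2 in MB, and Itga4 no longer passed without MT replicate 1 (log2FC 4.52 against 6.04, adjusted p = 0.0538). The gene that fell, named after its values were seen, was the hyaluronan receptor Cd44, with 676 and 703 CPM in MB and 145 and 298 CPM in MT (log2FC -1.66, adjusted p = 0.0485).

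Of the proteases that cut or process the members, 6 of 8 tested rose and none fell. Their median log2FC was 4.15, or 2.67 with the 2 genes at 3 counts or fewer in each MB library set to that limit. Adamts1 and Adamts5, which cleave versican, rose by log2FC of 5.26 (SE 0.56, adjusted p = 0.000227) and 5.42 (SE 0.50, adjusted p = 0.000137), beside 1.53 for Vcan. Tll1, a protease related to Bmp1, had 32 and 17 counts in MT and none in MB, and no longer passed without MB replicate 1 or 2 (adjusted p = 0.504 and 0.439), with a log2FC of 7.48 and 7.44 against 7.43. Of the 9 genes of the TGF-β list 4 rose and none fell (median log2FC 2.07). They include the ligands Tgfb2 (log2FC 3.84, and 2.43 without MT replicate 1) and Tgfb3 (3.48) and the receptor Tgfbr2 (2.51), while the feedback gene Smad7 (-0.30) did not pass.

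**Figure D4:**
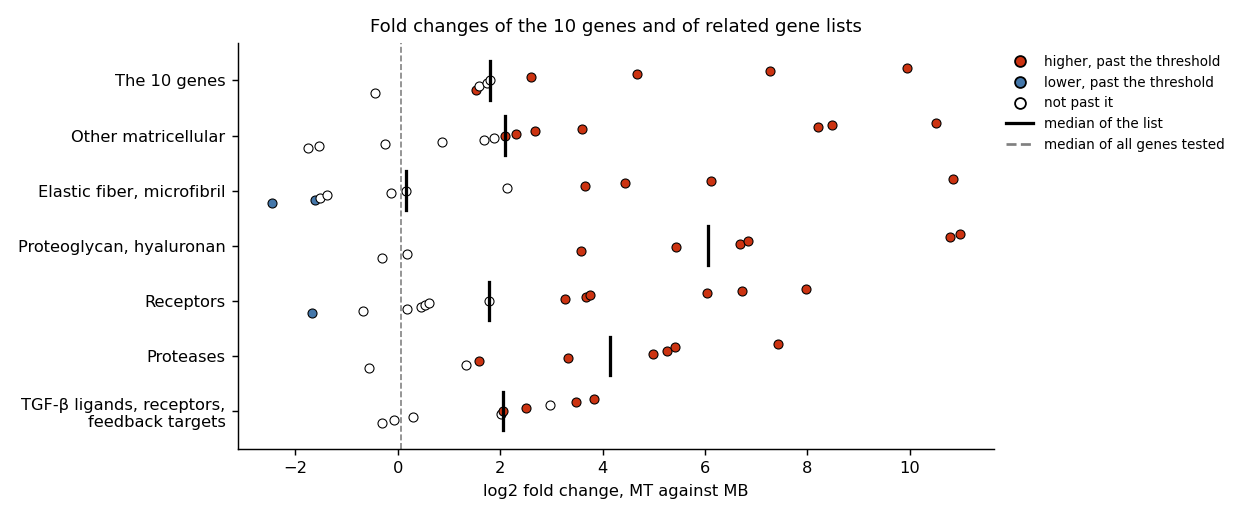
Log2 fold change in MT against MB (horizontal axis) of every tested gene, in rows for the members (9 of the 10 tested) and for 6 related lists. Red points were called higher, blue points lower and open points were not called, black bars are list medians, and the dashed line is the median of all genes tested. Blue points appear in the rows of elastic fiber and microfibril genes (2) and of receptors (1).

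Markers of other cell types were read in the same libraries. The fibroblast list of 10 genes summed to between 265 and 523 CPM in MB and between 14490 and 23728 CPM in MT. Most of this was collagen RNA, with Col1a1 at 13116 and 1762 CPM in MT and Col3a1 at 10497 and 12688 CPM. Of 6 tested genes of the list, Col1a1, Col1a2 and Col3a1 rose, and Pdgfra (log2FC 1.46), Ly6a (1.39) and Cd34 (-0.29) did not pass. Of the markers that are not collagens, Ly6a had 37.4 and 20.7 CPM in MT against 15.0 and 7.23 CPM in MB, Cd34 31.8 and 12.5 against 33.0 and 22.1, and Pdgfra 5.66 and 2.54 against 1.59 and 1.45. In MT Thy1 had 1 and 0 counts, Pi16 0 and 8, Dpt 41 and 8 and Lum 81 and 6. Col1a1 was high in MT replicate 1, as were Thbs2, Postn and Dcn.

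Sums of the other lists in MT were between 32.5 and 78.7 CPM for tendon cells (11.6 to 18.2 in MB), between 121 and 211 CPM for smooth muscle cells and pericytes (8.92 to 13.7 in MB), and between 4.07 and 20.2 CPM for macrophages (1.08 to 1.72 in MB). Endothelial markers summed to 18.6 CPM in MT replicate 1 and 0.25 CPM in MT replicate 2, with Pecam1 at 3 counts or fewer in both. In MT, Schwann cell markers summed to at most 3.80 CPM and adipocyte markers to at most 0.67 CPM. Muscle markers moved with the labels, from between 97.6 and 210.1 CPM in MB to between 10739 and 13895 CPM in MT for the list of differentiated muscle cells. All 6 genes of that list rose, and 1 of 4 myoblast markers, Pax7, fell. The part of any of these cells in the changes of the 10 genes was not tested.

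The comparison of lactate-treated with control MB asks whether lactate alone moves these genes. None of the 8 genes tested was called in either direction, at a nominal p under 0.01 and an absolute log2FC over 0.5 in edgeR's quasi-likelihood test, and neither was any of the 11804 genes tested (0.0%). At an unadjusted p under 0.05 no member passed, against 2 genes higher and 3 lower among all. In edgeR's likelihood ratio test no gene passed, and in the DESeq2 Wald test 1 gene did, which is not a member. Libraries with the same replicate number deviated alike from their group means (r = 0.70). A fit with a term for that number gave 7 higher and 6 lower genes, no member among them. With edgeR at these thresholds the study reports genes in both directions. The absence of calls thus does not show that lactate left RNA levels unchanged. When a library was left out, between 1 and 176 genes were called higher, the most without MB replicate 2, and no member was among them. The log2FC of the 8 genes ranged from -0.83 for Fbn1 to 0.48 for Thbs1, with a median of -0.27 against -0.0034 for all genes tested. Of the 8 values 6 were negative, and of the 11804 genes tested 5842 had a positive log2FC. No member had its lactate-treated libraries apart from its control libraries. The share of all genes for which this holds was not counted, so it is not read as particular to the members.

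For Fn1, Tnc and Thbs1 the lactate-treated libraries were further apart than the control libraries. Fn1 had 271 and 1432 CPM with lactate, on both sides of 956 and 906 CPM without it, and a log2FC of -0.14 (SE 0.78). Tnc had 66.2 and 481 CPM against 209 and 227 CPM (log2FC 0.32, SE 0.85), and Thbs1 had 178 and 1520 CPM against 468 and 747 CPM (log2FC 0.48, SE 0.94). In these 3 genes the lactate-treated libraries differed by 5.29-, 7.27- and 8.56-fold and the control libraries by 1.05-, 1.08- and 1.60-fold. A change of the size of these SEs would therefore not have been detected. The low library was replicate 1 each time, which is also the library with 13.8% of its counts on CT010467.1. A link between these features was not tested.

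The lactate-treated libraries of the other genes differed less, and for Sparc, Thbs2, Fbn1 and Bgn they were closer to each other than the control libraries were. Sparc had 1369 and 1602 CPM with lactate against 1976 and 1601 CPM (log2FC -0.30, SE 0.45), and Bgn 531 and 419 CPM against 816 and 396 CPM (-0.39, SE 0.49). Fbn1 had 4.92 and 9.96 CPM against 18.4 and 7.71 CPM (-0.83, SE 0.66), Thbs2 6.32 and 5.51 CPM against 11.8 and 5.18 CPM (-0.55, SE 0.60) and Vcan 8.96 and 18.8 CPM against 14.3 and 18.1 CPM (-0.24, SE 0.56). Lactate-treated MB replicate 1 had the lowest value of the 4 libraries for 6 of the 8 genes, and replicate 2 the highest for 4. The shares of all genes for which this holds were not counted, so it is not read as particular to the members. The signs for Fn1, Tnc, Thbs1, Thbs2, Vcan and Bgn turned when single libraries were left out. Postn, which is high in MT, had 1 and 4 counts with lactate against 0 and 6 without it, and Eln had none in either group, so neither was tested. In the related lists, too, no gene was called, out of 10 tested matricellular genes, 9 elastic fiber and microfibril genes, 3 proteoglycan and hyaluronan genes, 9 receptors, 6 proteases and 8 genes of the TGF-β list.

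In GAS all 10 genes had counts in each of the 3 libraries, which differed by 1.11-fold for Fn1 to 1.61-fold for Thbs2. The protocols were poly(A) selection for GAS and Smart-seq2 for cultured cells, so the tissue and the protocol cannot be told apart and no test was made. Sparc was again the highest at 43.0 ± 2.86 RPKM (SD, n = 3), from 161, 175 and 153 CPM, and above 96.0% of the 19415 genes with counts. Fbn1 came second at 5.26 ± 0.56 RPKM, with Fn1 at 4.88 ± 0.26 and Bgn at 4.72 ± 0.42, and the libraries of these 3 overlapped. Eln followed at 2.41 ± 0.22 RPKM, from 422, 352 and 372 counts. Thbs2 (1.20 ± 0.30), Thbs1 (1.15 ± 0.26) and Postn (1.00 ± 0.21) overlapped in turn, and Vcan (0.42 ± 0.10) and Tnc (0.28 ± 0.07) were the lowest, with overlapping libraries.

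The order in the tissue thus differed from that in culture. Fbn1 overlapped in GAS with Fn1 and Bgn, just below Sparc, and in MB with Thbs2 and Vcan. Eln was above 5 of the genes in GAS and the last in cultured cells. Thbs1 overlapped in GAS with Thbs2 and Postn, and in MB with Bgn and Fn1. Places in GAS depend on the length used, since with that of the longest transcript Bgn (10.8 RPKM) and Fn1 (6.85) were above Fbn1 (5.33). Tnc, the fifth in MB, had only 34, 54 and 40 counts in GAS. Within the summed RPKM of the 10 genes, Fbn1 took 7.82% to 8.56% in GAS and at most 1.14% in cultured cells, Eln 3.19% to 4.23% against at most 0.02%, and Thbs1 1.38% to 2.01% against 5.72% to 26.9%. The sum itself was 350.2 to 392 CPM in GAS. All fibroblast markers had counts in GAS, with a summed 515 to 583 CPM, as had endothelial markers with 157 to 175 CPM and Schwann cell markers with 12.4 to 25.2 CPM. Their part in the levels of the 10 genes was not tested.

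Likeness of pattern was described by the Pearson correlation of log2(CPM + 1) over the 6 libraries of cultured cells, with 26 other matrix genes of at least 10 CPM on average as candidates for each member. These libraries fall into 3 groups and share their protocol, so they are not independent points, and the values are given without a test. The gene most like Postn was Dcn (r = 0.997), that most like Thbs2 was the fibulin gene Fbln2 (0.965) and that most like Bgn was Fbln5 (0.967). Sparc and Fbn1 were most like each other (0.977), as were Thbs1 and Vcan (0.965). Fn1 was most like Ccn1 (0.944), the gene of another integrin-binding matricellular protein. Tnc had its best match at a lower value, Smoc2 (0.789), and Eln was below the level needed.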

How the data were processed

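RNA sequencing counts of 9 libraries (3 GAS, 2 MT, 2 MB, 2 lactate-treated MB) were used, grouped by the labels and all said there to be biological replicates. The authors trimmed the reads with Trim Galore 0.6.6, aligned them to mm10 with HISAT2 2.2.1 and counted them on genes with featureCounts of Subread 2.0.1, per the submitters' processing notes, and what was deposited are these raw counts for each gene. The annotation they used, strand and reads with several alignments are not given in the sources used here.

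Gene names and exonic lengths are from GENCODE M21 and promoter sequences from RefSeq (GRCm38.p6). CPM used TMM normalization, for GAS and cultured cells separately, and RPKM divided it by the merged exonic length. Each comparison was a fit over all genes that passed edgeR's filter on low counts, in the libraries compared, with edgeR's quasi-likelihood test and Benjamini-Hochberg adjustment, and the SE is the log2FC divided by the root of the test's F statistic. Calls needed an adjusted p under 0.05 for MT, or a nominal p under 0.01 for lactate, and an absolute log2FC over 0.5. Limits of 3 counts cover counting error only and are scaled without TMM factors. Python 3.11.15, R 4.3.3, edgeR 4.0.16 and DESeq2 1.42.0 were used, and the fits were tested on simulated data.

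The members and lists were chosen with earlier results of these data known. All 10 members are named. From each related list at most 3 genes are named, those with the largest absolute log2FC among called genes whose groups do not overlap, with the exceptions said in the text to be named after their values were seen and a few genes of lists or markers given as examples that did not pass. Alternatives were RLE size factors, other filters, DESeq2, the likelihood ratio test, a joint fit of the 6 libraries of cultured cells, a replicate block, other thresholds and leaving out each library.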

Additional observations from a re-analysis of the deposited data

How the results depend on the processing

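Over the alternatives, no member was called lower in MT and none was called with lactate. Counted over members and alternatives, 88 log2FC values in MT had the direction and the call reported, 10 newly passed, 9 no longer passed and none turned. The number of members higher in MT was 5, and it was 8 in the DESeq2 Wald test and in edgeR's likelihood ratio test, 3 in a fit of all 6 cultured libraries, and 3 to 5 when each library was left out, with 3 without MT replicate 1. Over all genes, 1425 were higher and 887 lower. With at least 10 counts in every library 766 were higher, the likelihood ratio test gave 1343 lower, and leaving out each library gave 962 to 4118 higher and 270 to 1570 lower. The median log2FC of all genes tested, 0.07, moved with the genes that passed the filter, to 1.82 without a filter and to between -0.02 and 1.00 when a library was left out. The cause of these shifts was not tested.

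For lactate, the number of genes higher was 0, and it was 1 without a filter on low counts, 1 in the DESeq2 Wald test, 2 at a nominal p under 0.05 (with 3 lower) and 1 to 176 when each library was left out (0 to 1 lower). When each library was left out, the log2FC with lactate ranged from -1.85 to 0.64 for Fn1, -1.79 to 1.16 for Tnc, -1.85 to 1.34 for Thbs1, -1.02 to 0.24 for Thbs2, -0.93 to 0.23 for Vcan and -0.81 to 0.31 for Bgn. The signs turned for Fn1 and Vcan without lactate-treated replicate 1, for Tnc and Thbs1 without lactate-treated replicate 2, and for Thbs2 and Bgn without MB replicate 1. In GAS, the length of the longest transcript raised the RPKM of Fn1 to 6.85, Postn to 1.66, Sparc to 70.8, Eln to 5.07 and Bgn to 10.8, since it is shorter than the merged exons, and put Fbn1 (5.33) below Bgn and Fn1.

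Libraries of different groups share replicate numbers, and no source says that a number marks a common culture. Deviations from the group means of libraries with the same number correlated with r = -0.13 across 12921 genes for MT and MB and with r = 0.70 across 11804 genes for lactate-treated and control MB, on 2 pairs each. With a replicate block, 4 members were higher in MT, Vcan no longer passing (adjusted p = 0.0708), among 1447 higher and 824 lower genes. With crossed numbers, added after the correlation was seen, 6 members were higher, with Thbs2 and Vcan (adjusted p = 0.0779 and 0.0599) no longer passing and Fn1, Sparc and Bgn newly passing, among 1192 higher and 867 lower genes. For lactate the block gave 7 higher and 6 lower genes, no member among them, and turned the log2FC of Tnc to -0.30 and of Thbs1 to -0.21. Depth limits most the genes with few counts in MB, such as Postn and Eln.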
